A study of Mus musculus with 9 samples.

Results

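Rpl3 and Rpl3l encode alternative forms of the same protein of the large ribosomal subunit. Both were taken from the count table by symbol, and they are 2 of its 15824 genes. RNA had been measured in 9 libraries of cardiomyocytes, the contracting muscle cells of the heart, from CD-1 (ICR) mice at postnatal day 1 (P1), day 14 (P14) and day 56 (P56), with 3 libraries per age. Hearts were pooled for each library, 12 at P1 and 6 to 7 at P14 and at P56, and total RNA was depleted of ribosomal RNA. The labels give no transgene or deletion in any group. Their protocols describe whole cells, days after a surgery, and a sort of nuclei stained for Pcm1, without saying from which of these materials a given library was made. The comparison asks which gene of the pair supplied the transcripts at each age.

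The protein made from Rpl3, called uL3 in all organisms, is a core part of the 60S subunit and reaches with a loop towards the peptidyl transferase centre, where peptide bonds are formed. Rpl3 is expressed in most tissues. Rpl3l is known as its paralog of heart and skeletal muscle, and its product takes the place of the Rpl3 protein in the ribosomes of these tissues. Grwd1, a chaperone of the newly made Rpl3 protein, and Mettl18, which methylates a histidine of it, act on the pair's protein before or during assembly of the 60S subunit.

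Rpl3l (ENSMUSG00000002500) lies on the forward strand at chr17:24727820-24736143, and Rpl3 (ENSMUSG00000060036) on the reverse strand at chr15:80077791-80091868, both in build GRCm38 with the GENCODE M21 annotation. Each has 10 coding exons, and 9 of these hold the same number of coding bases in the same place in both genes. The last coding exon has 54 coding bases in Rpl3l and 42 in Rpl3. The coding sequence encodes 407 residues in Rpl3l and 403 in Rpl3. Of 402 aligned codons, 310 (77.1%) encode the same residue, and 138 of these 310 do so with different bases.

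The stretches of coding sequence below show how far a sequencing read can tell the genes apart, since they are the most alike, the least alike and the outer parts of the pair. Each is written 5′ to 3′ on the coding strand as annotated by GENCODE M21 (GRCm38), and capitals mark bases that differ between the genes. In the first 20 codons, 47 of 60 bases were identical.
Rpl3l codons 1 to 20: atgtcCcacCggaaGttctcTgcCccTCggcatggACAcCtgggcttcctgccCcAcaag
Rpl3 codons 1 to 20: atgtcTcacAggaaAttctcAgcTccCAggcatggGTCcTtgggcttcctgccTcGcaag
The most alike 20 codons shared 52 of 60 bases, and 18 of the 20 codons encode the same residue.
Rpl3l codons 174 to 193: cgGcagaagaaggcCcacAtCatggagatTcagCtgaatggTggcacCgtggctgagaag
Rpl3 codons 174 to 193: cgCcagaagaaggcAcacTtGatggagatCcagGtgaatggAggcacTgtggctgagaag
The least alike 20 codons shared 35 of 60 bases, and 12 of the 20 codons encode the same residue.
Rpl3l codons 55 to 74: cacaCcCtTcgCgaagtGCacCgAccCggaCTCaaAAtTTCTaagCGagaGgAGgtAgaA
Rpl3 codons 55 to 74: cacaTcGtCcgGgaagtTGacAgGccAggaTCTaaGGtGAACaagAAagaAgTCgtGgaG
The last codons with the stop lie where the lengths differ, so they are shown in lower case with no base-by-base alignment.
Rpl3l last codons and stop: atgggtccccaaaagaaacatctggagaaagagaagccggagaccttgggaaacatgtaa
Rpl3 last codons and stop: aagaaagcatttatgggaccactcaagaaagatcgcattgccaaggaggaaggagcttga

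The longest run of identical bases in the aligned codons was 22 bases, so no stretch of 50 coding bases is common to the pair. Copies elsewhere in the genome differ in this between the genes. Of 1326 windows of 50 bases in the Rpl3l transcript, 0 occurred in a transcript of another gene, whereas 1114 of 1302 windows (85.6%) in the Rpl3 transcript did. These windows were shared with 26 genes, all of them annotated as pseudogenes, the most with Rpl3-ps1 (1061 windows). A read that lies wholly within such a window cannot be assigned to Rpl3 by sequence alone, while a longer read may reach a base that differs. Read length was not taken into account, and the sources used here do not say how reads with several matches were counted. Counts of Rpl3 are therefore uncertain in a way that counts of Rpl3l are not.

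**Figure D1:**
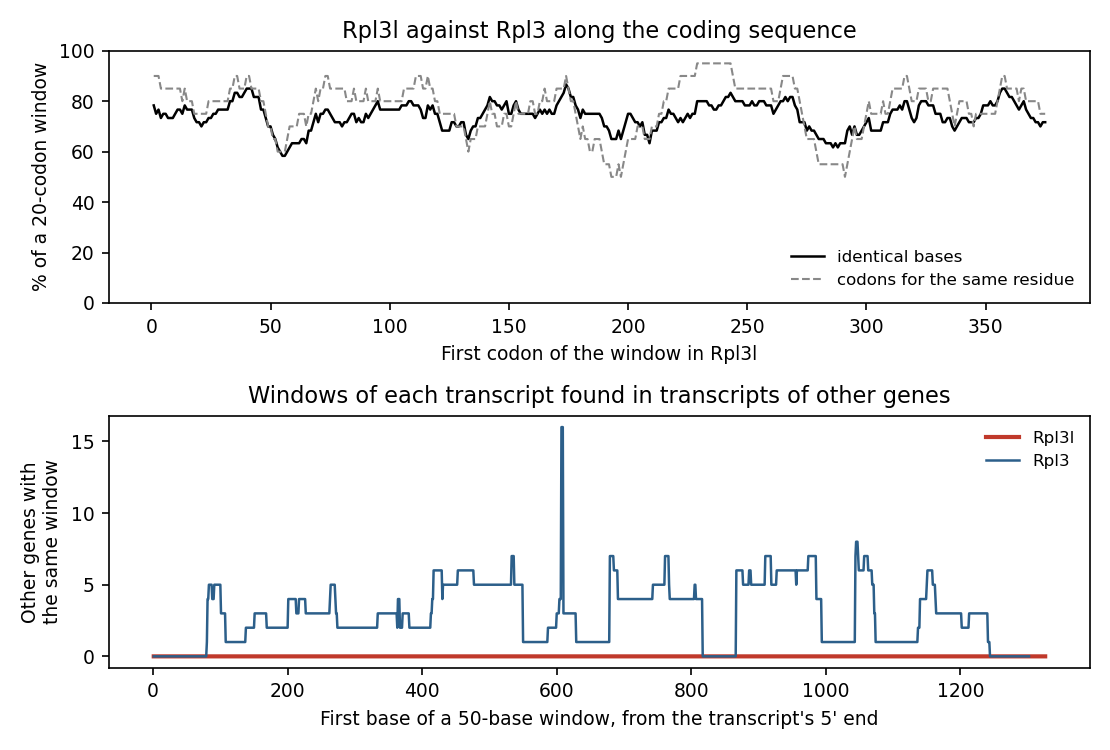
Sequence shared within and beyond the pair. The upper panel gives, for each 20-codon window, the percentage of bases that are identical between Rpl3l and Rpl3 (solid, 58.3% to 86.7%) and the percentage of codons for the same residue (dashed), against the first codon of the window. The lower panel gives the number of other genes whose transcripts hold each 50-base window, against its first base: the line of Rpl3l stays at 0, and most of the Rpl3 transcript lies above 0.

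Libraries held 36619799 to 58538025 counts. Single genes were compared with the quasi-likelihood test of edgeR on counts scaled by TMM (a scaling that aligns the bulk of genes between libraries), fitted to all 9 libraries, with Benjamini-Hochberg adjustment over 15817 genes and a threshold of 0.05. A log2 change is given with its standard error (SE), and levels are given as CPM (a gene's counts relative to the TMM-scaled library total). Of all genes tested, 55.9% differed between P14 and P1 (28.4% higher and 27.5% lower at P14), 56% between P56 and P14 (27.5% higher and 28.5% lower at P56), and 62.6% between P56 and P1 (30.9% higher and 31.7% lower at P56). The pattern across ages differed in 78%. A single call was thus common in these data, and the size of a change and its place among all genes say more than the call itself.

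The cardiomyocyte label was checked against 13 markers, whose summed level was 52002 to 61900 CPM at P1, 60079 to 92375 CPM at P14 and 55144 to 78764 CPM at P56. Markers of other cells were present as well, and their score (the mean log2 CPM of markers of fibroblasts, endothelium, blood cells, epicardium and the vessel wall) lay between 1.65 and 2.20 in the P1 libraries, between 2.66 and 3.87 in the P14 libraries and between 0.83 and 1.89 in the P56 libraries. The vessel wall list includes desmin, which cardiomyocytes also make, so the score is not of other cells alone. In bulk RNA, fewer cells of a type and less RNA per cell cannot be told apart. Pcm1 had 248 CPM at P1, 136 CPM at P14 and 173 CPM at P56 (means of 3 libraries).

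Rpl3l rose steeply between P1 and P14 and was higher again at P56, while Rpl3 fell at each step. Rpl3l was counted 93, 77 and 59 times in the P1 libraries, 841, 1333 and 1640 times in the P14 libraries, and 2683, 3021 and 3176 times in the P56 libraries. Its levels were 1.47, 1.46 and 1.06 CPM in the P1 libraries, 21.5, 36.0 and 45.2 CPM in the P14 libraries, and 60.8, 69.4 and 70.8 CPM in the P56 libraries. The ages did not overlap, and the spread was widest among the P14 libraries. Means were 1.33 ± 0.23 CPM at P1, 34.3 ± 12.0 CPM at P14 and 67.0 ± 5.41 CPM at P56 (SD, n = 3 libraries each).

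By edgeR, Rpl3l rose by 4.68 ± 0.28 on the log2 scale at P14 over P1 (adjusted p = 1.05e-06), and 50 of 15817 genes had a larger change. It rose by a further 0.97 ± 0.22 at P56 over P14 (edgeR adjusted p = 0.00433), where 1084 genes had a larger change. Over the whole period, at P56 over P1, the log2 change was 5.65 ± 0.28 (edgeR adjusted p = 1.34e-07), and 76 genes had a larger one. The later step was smaller than the earlier one, with a difference between the intervals of -3.71 ± 0.39 (edgeR adjusted p = 8.80e-05), a contrast in which 50% of all genes were called. The rise at P56 over P14 moved together with the score of other cells, and with that score in the edgeR fit the change was -0.078 (adjusted p = 0.856). The scores did not overlap between P14 (2.66 to 3.87) and P56 (0.83 to 1.89), so this fit cannot separate age from the score. In the same fit the change at P14 over P1 was 5.38. Scores of P1 (1.65 to 2.20) and P14 did not overlap either, so the same limit applies to this value.

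The markers of other cells differed between the same libraries in which Rpl3l did. At P14 the library with 21.5 CPM of Rpl3l had a score of 3.87, the one with 36.0 CPM had 3.38 and the one with 45.2 CPM had 2.66. At P56 the library with 60.8 CPM had a score of 1.89, the one with 69.4 CPM had 1.27 and the one with 70.8 CPM had 0.83. Within each of these ages, then, the library with the highest score had the least Rpl3l. By edgeR all 12 of 12 endothelial markers rose at P14 over P1 (28.4% of all genes did) and all 12 fell at P56 against P14 (28.5% of all genes did). Their summed level was 76.2 to 108 CPM at P1, 231 to 591 CPM at P14 and 39.5 to 98.9 CPM at P56. The fibroblast list summed to 202 to 365 CPM at P1, 233 to 850 CPM at P14 and 71.2 to 152 CPM at P56. The leukocyte list, of which 8 of 12 genes were measured, summed to 3.39 to 5.08 CPM at P1, 7.17 to 20.9 CPM at P14 and 6.55 to 13.4 CPM at P56. The epicardial list (5 of 7 measured) summed to 37.5 to 39.8 CPM at P1, 16.9 to 30.4 CPM at P14 and 6.04 to 13.4 CPM at P56. By edgeR 4 of these 5 markers rose at P14 over P1 (28.4% of all genes did), with a list median of 2.64 on the log2 scale. Tbx18, which had 34.5 CPM of the sum at P1 and 9.44 CPM at P14, fell by 1.87. The smooth muscle and pericyte list (9 genes, desmin included) summed to 244 to 272 CPM at P1, 311 to 396 CPM at P14 and 152 to 174 CPM at P56. No measured marker was at 0 in all libraries of an age. The part of these cells in the change of Rpl3l at P14 over P1 and at P56 over P14 was not tested, since the fit with the score cannot separate it from age.

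Skeletal muscle also uses Rpl3l. Of 17 skeletal muscle markers, 3 were measured and the other 14, among them Myod1, Myog and the skeletal myosins Myh1, Myh2 and Myh4, were not analysed here. The 3 summed to 1.84 to 1.90 CPM at P1, 3.86 to 4.81 CPM at P14 and 18.1 to 24.8 CPM at P56. Myl1, a myosin light chain of skeletal muscle and atria, averaged 1.10 CPM at P1, 2.61 CPM at P14 and 15.2 CPM at P56, and Cacna1s, the skeletal calcium channel, 0.558 CPM at P1, 0.768 CPM at P14 and 6.31 CPM at P56. Tnnt3, the fast skeletal troponin T, averaged 0.201 CPM at P1, 0.825 CPM at P14 and 0.113 CPM at P56. Their part in the change of Rpl3l was not tested.

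Rpl3 was counted 927, 672 and 711 times at P1, 371, 401 and 376 times at P14, and 356, 272 and 337 times at P56. Its level was 14.7, 12.7 and 12.8 CPM at P1, 9.48, 10.8 and 10.4 CPM at P14, and 8.06, 6.25 and 7.51 CPM at P56. The ages did not overlap, in the reverse order of Rpl3l, and the distance between neighbouring ages was small beside that of Rpl3l. Means were 13.4 ± 1.09 CPM at P1, 10.2 ± 0.69 CPM at P14 and 7.27 ± 0.93 CPM at P56 (SD, n = 3 libraries each).

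By edgeR, Rpl3 fell by 0.39 ± 0.11 on the log2 scale at P14 against P1 (adjusted p = 0.0153) and by 0.49 ± 0.12 at P56 against P14 (adjusted p = 0.00520). At P56 against P1 it fell by 0.88 ± 0.11 (edgeR adjusted p = 9.01e-05), and 2923 of 15817 genes fell further. The steps did not differ detectably (difference between the intervals -0.10 ± 0.20, edgeR adjusted p = 0.694). The first fall rested in part on 1 library: without P1 replicate 1 it was -0.32, with an edgeR adjusted p of 0.0678. With the score of other cells in the fit, the edgeR adjusted p was 0.0862 for P14 against P1 and 0.183 for P56 against P14. The changes were -0.41 and -0.46. Scores of P14 overlapped with those of neither P1 nor P56, so this fit cannot separate age from the score.

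**Figure D2:**
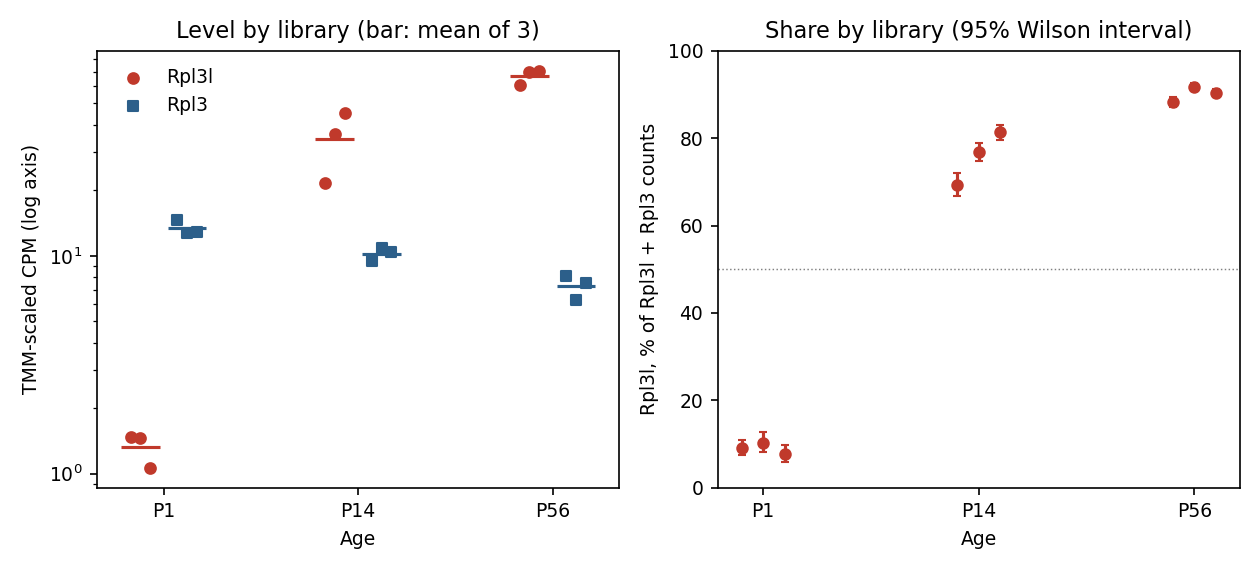
Levels of Rpl3l and Rpl3 and their share by library. The left panel gives TMM-scaled CPM on a log axis for each of 3 libraries per age (circles Rpl3l, squares Rpl3, bars the means): Rpl3l lies below Rpl3 at P1 and above it at P14 and P56. The right panel gives Rpl3l as a percentage of the pair's counts with 95% Wilson intervals, which cover counting error only, and a dotted line at equal shares: the P1 libraries sit at 7.66% to 10.3%, the P14 libraries at 69.4% to 81.3% and the P56 libraries at 88.3% to 91.7%.

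In the counts as deposited, the pair changed places between P1 and P14. Rpl3l made up 9.12% (95% Wilson interval 7.50% to 11.0%), 10.3% (8.30% to 12.7%) and 7.66% (5.99% to 9.76%) of the pair's counts in the P1 libraries. At P14 its share was 69.4% (66.7% to 71.9%), 76.9% (74.8% to 78.8%) and 81.3% (79.6% to 83.0%). At P56 it was 88.3% (87.1% to 89.4%), 91.7% (90.8% to 92.6%) and 90.4% (89.4% to 91.3%). Rpl3 was the more counted gene in every P1 library and Rpl3l in every P14 and P56 library, and no intervals of different ages overlapped. These intervals cover counting error only.

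The mean share of Rpl3l was 9.02 ± 1.31% at P1, 75.9 ± 6.04% at P14 and 90.1 ± 1.74% at P56 (SD, n = 3 libraries each). It was 66.9 percentage points higher at P14 than at P1, 14.3 points higher at P56 than at P14 and 81.1 points higher at P56 than at P1. The log2 ratio of Rpl3l to Rpl3, which needs no scaling between libraries, averaged -3.34 ± 0.23 at P1, 1.68 ± 0.47 at P14 and 3.21 ± 0.28 at P56. Each of these 6 pairwise differences had an exact two-sided permutation p of 0.1 (0.1 after adjustment over the 6), which is the smallest that 3 libraries against 3 allow. Over the 3 ages together, the exact permutation test of the F statistic gave p = 0.00357 for the share and for the log2 ratio, again the smallest possible (0.00476 after adjustment over 4 measures).

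At P1 there were 9.97, 8.73 and 12.1 counts of Rpl3 for each of Rpl3l. At P14 there were 2.27, 3.32 and 4.36 counts of Rpl3l for each of Rpl3, and at P56 there were 7.54, 11.1 and 9.42. In the counts as deposited, the excess of Rpl3l at P56 was thus about the size of the excess of Rpl3 at P1. This likeness depended on the measure. Per kilobase of exon union (all annotated exonic bases of a gene), the mean share of Rpl3l was 16.1% at P1 and 94.6% at P56. The summed level of the pair did not stay level while its makeup turned over. It was 16.1, 14.2 and 13.9 CPM at P1, 31.0, 46.9 and 55.6 CPM at P14, and 68.8, 75.6 and 78.3 CPM at P56, with no overlap between ages (p = 0.00357 and adjusted p = 0.00476 by the same exact permutation test).

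The value of the share, though not its order across the ages, depended on how the genes were made comparable. Counts per kilobase of the longest coding transcript, which is 1375 bases in Rpl3l and 1351 in Rpl3, gave mean shares of 8.88% at P1, 75.6% at P14 and 90.0% at P56. Adding the counts of Rpl3-ps1 to Rpl3 gave 7.24% at P1. If reads from the windows that other genes share had all been lost, and counts were set against the windows found in no other gene (1326 in Rpl3l, 188 in Rpl3), the mean share would be 1.39% at P1, 31.5% at P14 and 56.7% at P56. Under that reading Rpl3l would be the lesser gene at P14. The increase with age was present in every one of these settings, while the age at which Rpl3l passed Rpl3 was not the same in all of them.

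**Figure D3:**
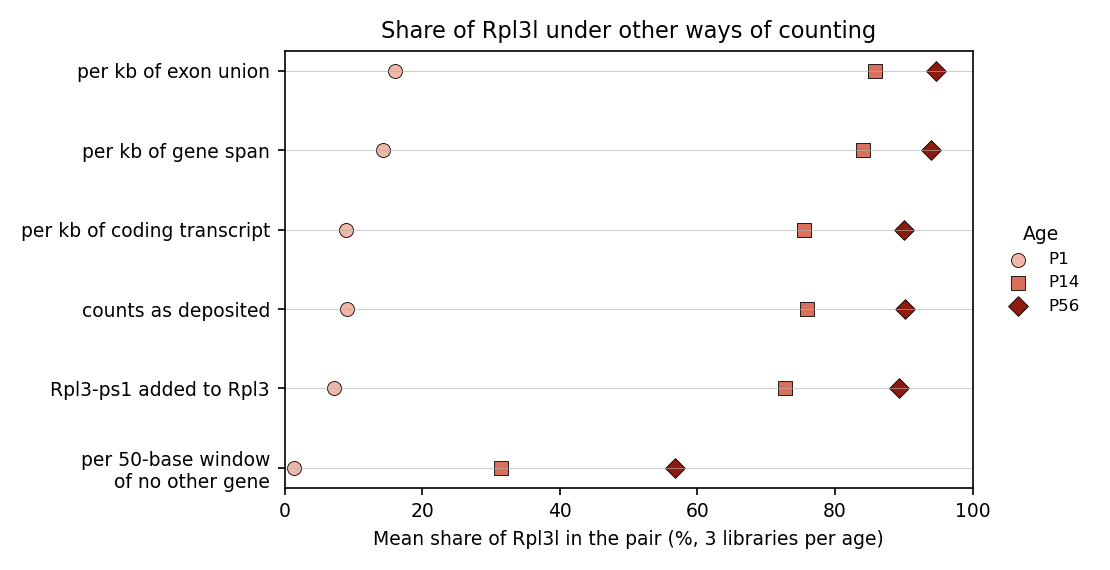
Mean share of Rpl3l in the pair (horizontal axis, percent, 3 libraries per age) under the count as deposited and 5 other ways of setting the genes against each other (rows). In every row P1 (circles) lies lowest, P14 (squares) next and P56 (diamonds) highest: the P1 means run between 1.39% and 16.1%, the P14 means between 31.5% and 85.8%, and the P56 means between 56.7% and 94.6%. The rows by length or window could not change this order.

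Rpl3-ps1, a processed pseudogene of Rpl3 on chromosome X (chrX:13202571-13203780, GRCm38), had 245, 160 and 229 counts at P1, 79, 64 and 63 at P14, and 30, 33 and 30 at P56. Its ages did not overlap, and it was counted less than Rpl3 in every library. By edgeR it fell by 2.39 on the log2 scale at P56 against P1 (adjusted p = 1.49e-06), by 1.01 at P14 against P1 and by 1.38 at P56 against P14. Its sequence shares most windows with Rpl3, so its counts and those of Rpl3 cannot be told apart with certainty.

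Rpl3 fell together with many other ribosomal protein genes. The list of 76 genes of the cytosolic ribosome in the table held Rpl3 and also Rpl6l, which is annotated as a processed pseudogene. By edgeR, 0 rose and 27 fell at P14 against P1, where 28.4% of all genes rose and 27.5% fell. At P56 against P14, 1 rose and 33 fell (27.5% and 28.5% of all genes). At P56 against P1, 0 rose and 56 fell (30.9% and 31.7% of all genes). The gene that rose was Rpl30, by 0.37 at P56 over P14. Medians of the list were -0.29 at P14 against P1, -0.34 at P56 against P14 and -0.54 at P56 against P1 on the log2 scale, beside medians over all genes of 0.0010, -0.02 and -0.03. Summed, the 76 genes had 501 to 567 CPM at P1, 412 to 457 CPM at P14 and 327 to 369 CPM at P56.

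The makeup of the RNA differed between the same libraries. Malat1 and Neat1, long RNAs kept in the nucleus, together took 2.09% to 2.27% of the counts in the P1 libraries, 2.73% to 3.22% in the P14 libraries and 2.95% to 3.19% in the P56 libraries. Genes of the mitochondrial genome (all symbols that start with mt-) took 0.988% to 1.25% in the P1 libraries, 0.982% to 2.20% in the P14 libraries and 0.378% to 0.731% in the P56 libraries. Among the P14 libraries, the one with 457 CPM of ribosomal protein transcripts had 2.20% of its counts from the mitochondrial genome, the one with 433 CPM had 1.49% and the one with 412 CPM had 0.982%. The part of these differences in the fall of Rpl3 and of the list was not tested.

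Within that list Rpl3 fell more than the median gene and was not at an extreme. Counted from the lowest log2 change, it stood at place 25 of 76 for P14 against P1, at place 20 for P56 against P14 and at place 22 for P56 against P1. Its nearest neighbours at P56 against P1 were Rps18 at -0.90 and Rpl7a at -0.84. The lowest was Rpl6l at -2.15, and Rplp0, the stalk protein P0, and Rpl8, which like Rpl3 belongs to the 60S subunit, changed by -1.65 and -1.51. The highest was Rps27 at 0.13. Rps2, of the 40S subunit, changed by 0.37 at P14 against P1 and by -0.90 at P56 against P14, the highest and the lowest value of the list in those comparisons.

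Rpl3 held 2.73%, 2.54% and 2.26% of the counts of the 76 genes at P1, 2.08%, 2.51% and 2.52% at P14, and 2.19%, 1.91% and 2.28% at P56. The ages overlapped, and no difference was detected among them (exact permutation test of the F statistic, p = 0.204, adjusted p = 0.204). Rpl3l, set against the 76 genes plus itself, held 0.273%, 0.291% and 0.187% of the counts at P1. It held 4.50%, 7.69% and 9.89% at P14 and 14.1%, 17.5% and 17.7% at P56. Its share of ribosomal protein transcripts thus grew at each age with no overlap, while no difference was detectable for Rpl3.

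Levels per kilobase of coding transcript were ranked among 76 genes, namely the ribosomal protein list with Rpl3l added and without Rpl6l, which has no coding transcript. Rpl3l ranked 75th at P1 with 0.968 ± 0.169 CPM per kilobase. It ranked first at P14 with 24.9 ± 8.71 CPM per kilobase, ahead of Rps14 with 13.6, and first at P56 with 48.7 ± 3.93, ahead of Rpl35a with 10.2. Rpl3 ranked 17th at P1 with 9.92 ± 0.81 CPM per kilobase, 22nd at P14 with 7.57 ± 0.51 and 25th at P56 with 5.38 ± 0.69 (SD, n = 3 libraries each). The order of these levels is subject to the same uncertainty as the share, since many ribosomal protein genes have processed pseudogenes, and Rpl3l shared no window with another gene. All 76 ribosomal protein genes together took 0.0294% to 0.0635% of a library's counts. The labels do not say whether whole cells or nuclei gave the RNA. Levels, ranks and shares given here need therefore not describe the mRNA of the cytoplasm.

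**Figure D4:**
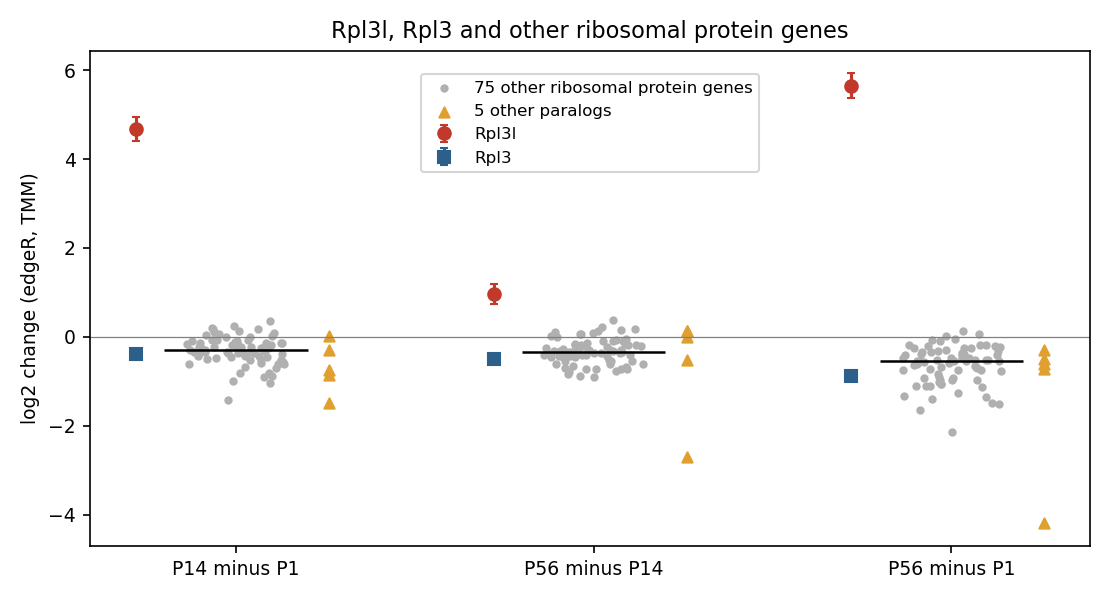
Log2 change by edgeR (vertical axis) in 3 comparisons of ages for Rpl3l (circle), Rpl3 (square), 75 other cytosolic ribosomal protein genes (grey points, with a bar at their median) and 5 other paralogs of ribosomal proteins (triangles). Error bars are standard errors. Rpl3l lies above all other points in each comparison, at 4.68, 0.97 and 5.65, and Rpl3 lies among the grey points, at -0.39, -0.49 and -0.88.

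Other paralogs of ribosomal proteins were set beside Rpl3l. Of 7 listed, 5 were tested and Rpl10l and Rpl39l were not analysed here. By edgeR, 0 rose and 3 fell at P14 against P1, 0 rose and 2 fell at P56 against P14, and 0 rose and 4 fell at P56 against P1. Of all genes, 28.4%, 27.5% and 30.9% rose and 27.5%, 28.5% and 31.7% fell in these comparisons, so among 5 genes no rise is little removed from the background. At P56 against P1, Rps4l changed by -4.19, Rpl36al by -0.73, Rps27l by -0.61 and Rpl7l1 by -0.49, and Rpl22l1 by -0.30 with an edgeR adjusted p of 0.320. Among the 6 paralogs tested, Rpl3l included, Rpl3l was the one that passed the test as a rise.

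The share of Rpl3l was set beside that of other pairs. One is elongation factor 1 alpha, which brings aminoacyl-tRNA to the ribosome and also has a form of muscle and brain, Eef1a2. Shares were computed from counts per kilobase of coding transcript. Of 14 pairs listed, 12 had both genes in the table and 11 could be compared. Rps4l with Rps4x had both genes in the table but no such share. Eef1a2 held 27.5 ± 0.58% of its pair with Eef1a1 at P1, 68.4 ± 11.7% at P14 and 94.1 ± 2.26% at P56 (SD, n = 3). Tnni3, the adult cardiac troponin I, held 42.8% of its pair with the fetal form Tnni1 at P1, 99.5% at P14 and 99.9% at P56. Myh6, the adult mouse myosin heavy chain, held 83.1% of its pair with Myh7 at P1, 98.0% at P14 and 97.5% at P56.

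Pairs of cytochrome oxidase subunits with a muscle form moved less. Cox7a1 held 13.1% of its pair with Cox7a2 at P1, 27.7% at P14 and 31.2% at P56, and Cox8b held 39.4% of its pair with Cox8a at P1, 49.7% at P14 and 50.1% at P56. Cox6a2 held 32.6% of its pair with Cox6a1 at P1, 29.3% at P14 and 35.6% at P56. Among ribosomal proteins, Rpl22l1 held 40.1% of its pair with Rpl22 at P1 and 45.1% at P56, and Rps27l held 57.1% of its pair with Rps27 at P1 and 44.4% at P56. The log2 ratio within the pair was 6.55 higher at P56 than at P1 for Rpl3l over Rpl3, 5.47 for Eef1a2 over Eef1a1, 10.30 for Tnni3 over Tnni1, 3.01 for Myh6 over Myh7 and 1.58 for Cox7a1 over Cox7a2. These are descriptions of 11 pairs, and differences between pairs were not tested.

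**Figure D5:**
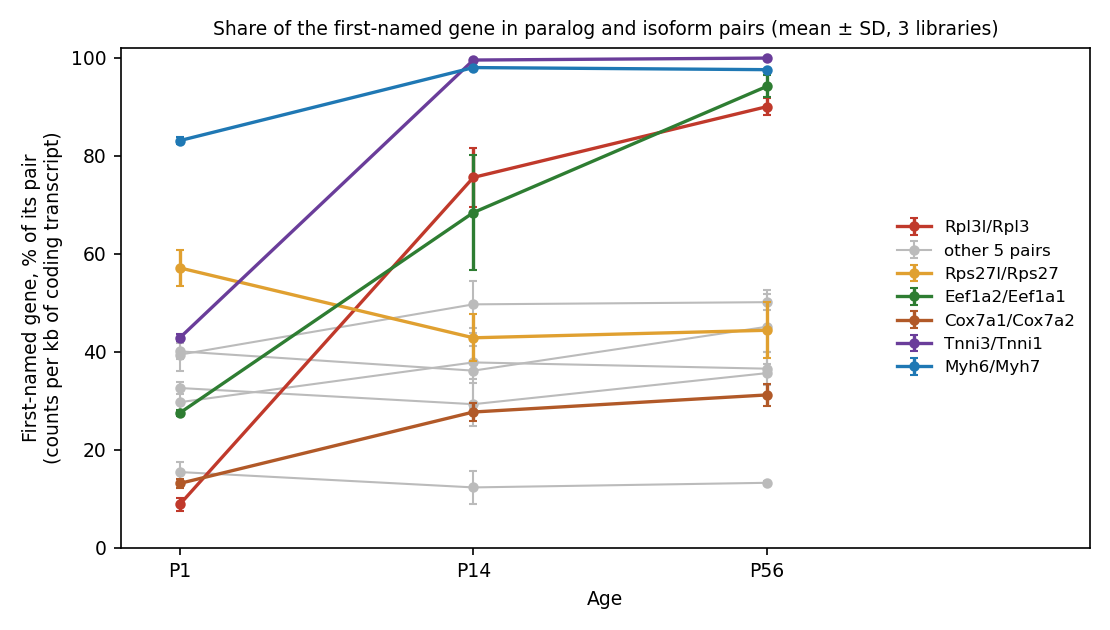
Share of the first-named gene in its pair (vertical axis, percent of the pair's counts per kilobase of coding transcript, mean and SD of 3 libraries) at P1, P14 and P56 for 11 pairs. Rpl3l goes through 8.88%, 75.6% and 90.0%, and Eef1a2 through 27.5%, 68.4% and 94.1%. The 4 other ribosomal protein pairs (Rps27l in yellow and 3 of the grey lines) stay between 12.3% and 57.1%.

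The members of the elongation factor pair moved apart as the pair of uL3 did, but with the larger change on the side of the common form. Eef1a1 had 80.6 CPM at P1, 32.1 CPM at P14 and 4.94 CPM at P56, and its log2 change at P56 against P1 was -4.03. Eef1a2 had 35.5 CPM at P1, 82.6 CPM at P14 and 92.2 CPM at P56, with a log2 change of 1.38 at P56 over P1 and of 0.16 at P56 over P14 (edgeR adjusted p = 0.360). In the uL3 pair the muscle form moved by 5.65 and the common form by -0.88. Of 14 genes of elongation and termination, 3 rose and 4 fell at P14 against P1 (28.4% and 27.5% of all genes did), 2 rose and 5 fell at P56 against P14 (27.5% and 28.5%), and 3 rose and 6 fell at P56 against P1 (30.9% and 31.7%), by edgeR. At these list sizes the counts lie near the shares of all genes. At P56 against P1, Eef2, the translocation factor, changed by -1.21 and Eef2k, the kinase that inhibits it, by 1.11. The median of this list was 0.03 at P56 against P1.

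The factors that act on the uL3 protein did not pass the test in any comparison. Grwd1 had log2 changes of 0.22 at P14 over P1 (edgeR adjusted p = 0.346), -0.44 at P56 over P14 (0.0711) and -0.23 at P56 over P1 (0.315). Mettl18 had -0.30 (edgeR adjusted p = 0.416), 0.26 (0.494) and -0.04 (0.909) in the same comparisons. Of 28 genes of 60S assembly, 2 rose and 10 fell at P14 against P1, 4 rose and 6 fell at P56 against P14, and 4 rose and 11 fell at P56 against P1, with medians of -0.13, -0.04 and -0.19. At P56 against P1, Ebna1bp2 and Ppan, both assembly factors of the early 60S particle, each fell by 0.69, and Nle1 fell by 0.56. Rrs1, which brings the 5S particle to the early 60S, rose by 0.53, Rrp15 by 0.31 and Wdr12, of the PeBoW complex, by 0.30. Of all genes, 28.4% rose and 27.5% fell at P14 against P1, and 27.5% rose and 28.5% fell at P56 against P14. At P56 against P1, 30.9% of all genes rose and 31.7% fell.

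Among 23 genes of ribosomal RNA synthesis and of the control of mRNAs for ribosomal proteins, 1 rose and 6 fell at P14 against P1, 4 rose and 6 fell at P56 against P14, and 2 rose and 10 fell at P56 against P1 (edgeR), with medians of -0.07, -0.18 and -0.10. Of all genes, 27.5%, 28.5% and 31.7% fell in these comparisons and 28.4%, 27.5% and 30.9% rose, so the falls at P14 against P1 and at P56 against P14 lie near the background. The largest falls at P56 against P1 were those of Mycn (-3.54) and Myc (-2.55), transcription factors that drive ribosome production, and Polr1c, a subunit of RNA polymerases I and III, changed by -0.80. Polr1a, the largest subunit of RNA polymerase I, rose by 0.55 and Larp4 by 0.47.

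The genes next to the pair on the chromosome were compared, since Msrb1 starts 498 bases beyond Rpl3l. Msrb1, a methionine sulfoxide reductase, rose by 1.26 on the log2 scale at P14 over P1 (edgeR adjusted p = 0.00119) and had 0.05 at P56 over P14. Ndufb10, a subunit of respiratory complex I on the other side of Rpl3l, rose by 0.75 at P14 over P1 (edgeR adjusted p = 0.00125) and had -0.24 at P56 over P14. Both were higher at P14 like Rpl3l, by much less. Syngr1 overlaps Rpl3 on the opposite strand with 0 shared exonic bases, and its changes of 0.34, -0.21 and 0.13 did not pass the test (edgeR adjusted p = 0.0537 at P14 over P1). Tab1 passed in no comparison. Pdgfb, a growth factor made by endothelial cells, rose by 2.56 at P14 over P1 and fell by 2.59 at P56 against P14. The small RNA genes annotated inside Rpl3 (Snord83b, Snord43, Gm22077 and Gm24204) were not analysed here.

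Genes with a course like that of each member were found by Pearson's r of log2 CPM over the 9 libraries, among 11404 genes with a mean of at least 1 CPM. For Rpl3l the closest were Sh3rf2, Pik3r1 and Pstpip2 (each r = 0.999), Limch1 and Cfap61 (each 0.998). They shared the shape and not the size: Sh3rf2 had a log2 change of 3.97 at P56 over P1, Limch1 of 4.77 and Pik3r1, the regulatory subunit of phosphoinositide 3-kinase, of 2.18. In all, 619 genes had r above 0.95 with Rpl3l and 596 had r below -0.95, so a course of this shape was common. The 9 points form 3 ages, and they share library, depth and the score of other cells. By distance between centred profiles, which also weighs the size, the closest were Kcnd3, a potassium channel of the transient outward current, Slc38a3, P2ry2, Rhbdl3 and Sec14l5, none of them among the first 5. Kcnd3 averaged 12.0 CPM at P1, 315 CPM at P14 and 769 CPM at P56.

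For Rpl3 the closest were Zfp687 (r = 0.981), Ccdc167 and Commd7 (each 0.980), Ryk and Zfp773 (each 0.975). Zfp687 averaged 20.3 CPM at P1, 15.4 CPM at P14 and 11.0 CPM at P56. Fewer genes followed Rpl3 this closely, with 98 above 0.95 and 121 below -0.95. By distance, Zfp687 and Ccdc167 were again among the closest 5, together with Epb41l4a, Lrp4 and Mbd3. None of the genes named here as close to Rpl3 encodes a ribosomal protein. With 76 genes on the ribosomal protein list and 11404 candidates, this says little about Rpl3.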

How the data were processed

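The authors deposited 1 table of whole-number counts per gene for 9 libraries. Per the submitters' processing notes the tools were featureCounts 1.4.2, STAR 2.4.0g1 and bcl2fastq 2.17.1.14, and the mouse build was GRCm38. Whether exons or whole genes were counted, with or without strand, and how reads with several matches were treated are not stated in the labels or the table. Ages and replicate numbers were read from the sample titles. Libraries of 1 age are described as biological triplicates, and nothing else ties them to separate isolations, so p-values measure the spread between these libraries. Libraries of 1 age differed by more than counting error (chi-square per degree of freedom 5.56 to 104), and none was merged.

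From the counts, edgeR 4.0.16 (R 4.3.3) removed 7 genes with filterByExpr and fitted the 9 libraries together, with age as sole factor (common dispersion 0.0192). After the main fit, the same procedure was also run on counts simulated from its means and dispersions, with the outcome not given here. Shares and log2 ratios were computed in each library from the raw counts with Python 3.11.15, and compared with exact permutation tests. The 95% Wilson intervals cover counting error only. Symbols were read from the row names, which join an identifier and a symbol; for a repeated symbol (1 in the table) the row with most counts was used. Of 15824 identifiers, 15763 were found in GENCODE M21, which gave lengths, coordinates and transcript sequences. The rule for named genes took the pair, the members of the listed paralog and isoform pairs, Pcm1, Myh6, Myh7, Grwd1 and Mettl18. It added up to 3 members per list, direction and comparison with the largest change past the threshold, the ribosomal protein genes nearest to Rpl3 in change, genes that neighbour or overlap the pair, its annotated pseudogenes and the 5 genes closest to each member. Genes named outside this rule were chosen after their values were seen: these are the ends of the ribosomal protein list, the highest per kilobase, list members that did not pass, the genes closest by distance and the markers named as not analysed. The members and lists were chosen with earlier results of these data known. Alternatives were other scalings (RLE, library totals), no filter, DESeq2 1.42.0, fits on the compared ages alone, a replicate block, the score of other cells as a covariate, each library left out in turn and other lengths for the share.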

Additional observations from a re-analysis of the deposited data

Results flagged for a closer look

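The course of Rpl3l differed between the intervals. Its log2 change at P56 over P14 (0.97) minus that at P14 over P1 (4.68) was -3.71 ± 0.39 (edgeR adjusted p = 8.80e-05), and 50% of all genes were called in the same contrast.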

How the results depend on the processing

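The directions of all log2 changes of Rpl3l and Rpl3 and the order of the shares across ages were kept under every alternative run, except 1. With the score of other cells as a covariate, the change of Rpl3l at P56 over P14 was -0.078 (edgeR adjusted p = 0.856), and those of Rpl3 were -0.41 at P14 against P1 (0.0862) and -0.46 at P56 against P14 (0.183). That fit called 2453 genes higher and 2340 lower at P56 against P14 (4356 and 4504 without the score), and 2489 up and 2630 down in the difference between the intervals (3809 and 4107 without it). The scores of the P14 libraries overlapped with those of neither P1 nor P56. That fit therefore cannot separate age from the score in either step, and the cause was not tested. With each library left out in turn, the change of Rpl3 at P14 against P1 ran between -0.43 and -0.32, and it passed the threshold in all of these fits except the one without P1 replicate 1 (edgeR adjusted p = 0.0678). By their construction the lengths moved the share of Rpl3l and could not change its order across ages. Per kilobase of exon union the share was 16.1% at P1, 85.8% at P14 and 94.6% at P56. With Rpl3-ps1 added to Rpl3 it was 7.24% at P1. Chosen after seeing the data, counts per kilobase of gene span gave 14.3%, 84.1% and 93.9%, and per 50-base window of no other gene 1.39%, 31.5% and 56.7%. The length of the longest coding transcript was also chosen after seeing the data (8.88%, 75.6% and 90.0%). That length served for the ranking per kilobase and for the shares of the other pairs as well. Same-numbered libraries had correlations of -0.219 to 0.493, and differently numbered ones of -0.479 to 0.299. The highest values were those of P14 and P56 replicates 1 (0.493) and replicates 3 (0.364). Whether the numbers pair the samples is therefore not settled. The replicate block changed no call of the pair (Rpl3l 4.63, 1.01 and 5.63, Rpl3 -0.38, -0.50 and -0.88), and it kept each count of genes called within 1.5 times. Paired sign flips of the share cannot give an exact p below 0.25. The 59 to 93 counts of Rpl3l at P1 limit the precision of its share there.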
